A study of Mus musculus with 8 samples.

Results

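Ahnak is described here as a single locus bound by ALKBH5 in mouse embryonic stem cells, chromosome 19 from 8966600 to 8998400 in GRCm39 (31801 bp), which takes in the very large coding exon of the gene. Every peak that overlapped this locus by at least 1 bp was taken, which gave 19 of the 72953 peaks in 4 deposited lists. The locus was chosen by these same peaks, because the full-length lists hold some of their widest peaks there. Its peak numbers, widths and enrichments are therefore a description of the 4 libraries, and no test was made on them.

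The study used eCLIP, in which UV light crosslinks a protein to the RNA it touches before immunoprecipitation, on nuclei of E14TG2a cells, an established line of pluripotent mouse embryonic stem cells grown with LIF and the inhibitors PD0325901 and CHIR99021. Wild-type (WT) cells carry full-length endogenous ALKBH5 (FL), and Alkbh5 del-cIDR cells carry the endogenous protein without its C-terminal intrinsically disordered region. Each genotype had an immunoprecipitate and an input in 2 replicates, and peak lists exist here for the 4 immunoprecipitates. The labels give no clone number for the del-cIDR cells and do not say whether replicates were separate cultures, so the spread between replicates may be technical.

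ALKBH5 is a nuclear demethylase that erases N6-methyladenosine on RNA. In mRNAs this modification is known to be concentrated around stop codons and in unusually long internal exons, and its writers act on the pre-mRNA in the nucleus. AHNAK is a giant scaffold protein built of many copies of a repeated unit, known for linking the annexin A2 and S100A10 complex and calcium channels to the actin cytoskeleton below the plasma membrane. Almost all of its protein is encoded by 1 exon. RefSeq places Ahnak (gene 66395) on the forward strand of chromosome 19 in the older build GRCm38.p6, so positions rising along the locus run from the 5′ to the 3′ end of the gene. The peaks carry no strand, and no exon, intron or UTR boundary in GRCm39 was used.

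Listed peaks of full-length ALKBH5 covered most of the Ahnak locus, and those of del-cIDR ALKBH5 covered a single short site near its 3′ end. The locus held 8 and 9 peaks in the full-length replicates and 1 peak in each del-cIDR replicate. Peaks covered 20153 and 19595 bp in the full-length lists, or 63.4% and 61.6% of the locus. In the del-cIDR lists they covered 457 and 396 bp, or 1.44% and 1.25%. Covered length averaged 19874 ± 395 bp for full-length and 426.5 ± 43.1 bp for del-cIDR ALKBH5 (SD, n = 2 per genotype). The ratio of these means was 46.6, and the genotypes did not overlap.

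**Figure D1:**
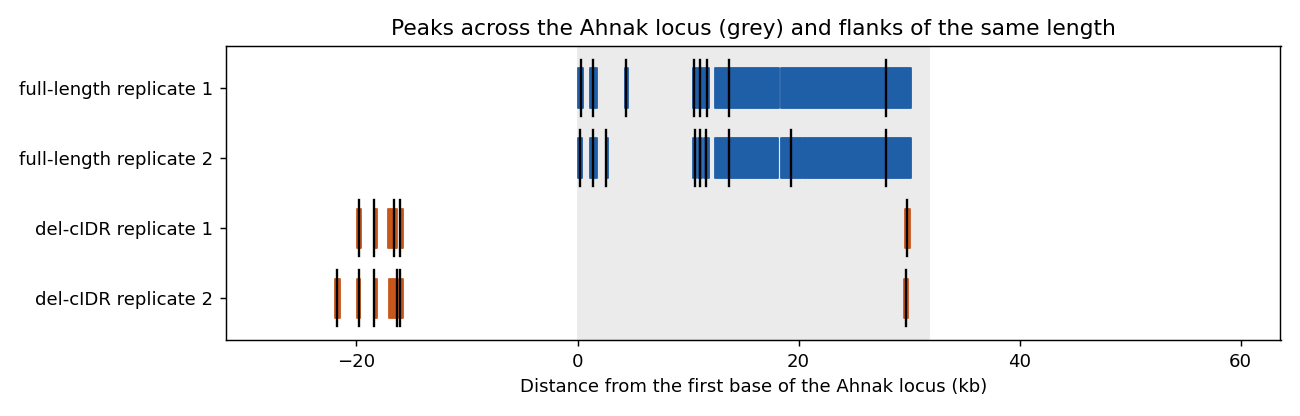
Peaks of the 4 libraries (bars, with a black tick at each summit) against distance in kb from the first base of the Ahnak locus, with the locus in grey and a flank of the same length on each side. The full-length lists (blue) hold 8 and 9 peaks inside the locus, and each del-cIDR list (orange) holds 1 there and 4 or 5 in the upstream flank.

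Such a separation was common in these lists. Over 18228 windows of the length of the locus that held a peak in at least 1 list, both full-length lists covered more bases than both del-cIDR lists in 20.4%. The same order held for the number of peaks in 18.0% and for the widest peak in 19.7% of windows. Since the locus was picked for this contrast, its own separation is read only as part of that background. The same holds for its size, since the locus was chosen for its wide peaks. Above its covered bases lay 3 windows in full-length replicate 1 and 2 in replicate 2. A single window also took in the wide peaks of Ahnak whole, so the windows are not independent of the locus. In the del-cIDR lists 21.0% and 25.2% of the windows covered at least as much as the locus did. Among the 3011 windows with a peak in all 4 lists, the ratio of full-length to del-cIDR covered bases had a median of 0.899. Its 95th percentile was 6.04, and 2 windows exceeded the 46.6 of Ahnak. This set leaves out windows with full-length bases and no del-cIDR bases, so it does not rank Ahnak among all windows. The locus was picked for this contrast, so its high ratio is likewise no more than a description.

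**Figure D2:**
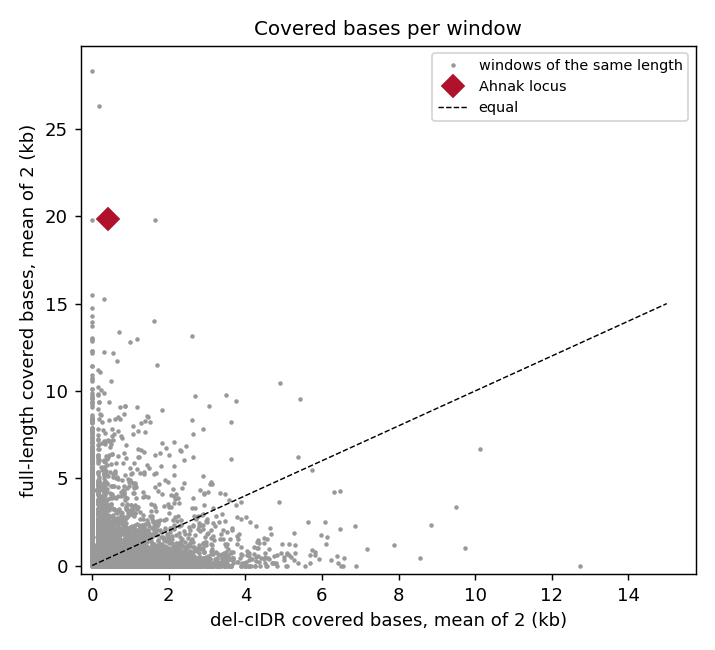
Mean covered bases per window in the del-cIDR lists (x axis, kb) against the full-length lists (y axis, kb), with 1 grey point per window of 31801 bp and the dashed line at equality. The Ahnak locus (red diamond) lies at 19874 bp for full-length and 426.5 bp for del-cIDR ALKBH5, close to the y axis. The grey points include a window that overlaps most of the locus.

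The lists were of similar mean length in both genotypes (18264 peaks for full-length and 18212.5 for del-cIDR ALKBH5) but differed in wide peaks. They held 19892 and 16636 peaks for full-length and 17584 and 18841 for del-cIDR ALKBH5, and the number of reads behind them is unknown. Peaks covered 12.31 and 7.632 Mb in the full-length lists and 7.088 and 7.888 Mb in the del-cIDR lists. Full-length replicate 1 thus stood apart from its own replicate. Peaks of 2 kb or more numbered 825 and 361 in the full-length lists and 16 and 26 in the del-cIDR lists, so wide peaks went with genotype well beyond Ahnak. As a share of all covered bases of its list, the Ahnak locus made up 0.164% and 0.257% in full-length and 0.00645% and 0.00502% in del-cIDR libraries. No separate values of the inputs were used, so the amount of Ahnak RNA and its binding cannot be told apart in these lists.

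Within the full-length lists the peaks formed a ladder of short sites followed by a nearly unbroken stretch. From 8979069 to 8996800, a stretch of 17732 bp, peaks covered 99.0% in replicate 1 and 97.9% in replicate 2. The 12469 bp of the locus before that stretch were covered to 20.8% and 18.0%. The stretch held 87.1% and 88.6% of all Ahnak bases covered in the 2 libraries. In the del-cIDR lists it was covered to 2.58% and 2.23%, and the part before it held no peak.

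The first of the 2 wide peaks was the most enriched Ahnak site in both full-length libraries. It ran from 8979069 to 8984821 (5753 bp) in replicate 1 and from 8979074 to 8984765 (5692 bp) in replicate 2. Its fold enrichment, which is the authors' value for the peak over the background of their peak caller, was 39.5 and 27.0. By −log10 q it ranked 5 of 19892 and 18 of 16636 peaks in those lists. The summit, the base of highest signal within a peak, lay at 8980345 and 8980294, which is 22.2% and 21.4% of the way along. No del-cIDR peak overlapped it.

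The second wide peak reached from 8984997 to 8996800 in full-length replicate 1, a width of 11804 bp with 32.0-fold enrichment and rank 8. In replicate 2 the same stretch was split into a peak of 1888 bp, from 8985035 to 8986922 with 19.6-fold enrichment and rank 35, and one of 9772 bp, from 8986975 to 8996746 with 21.7-fold enrichment and rank 19. The gap between those was 52 bp, and every base of it was covered in replicate 1. Replicate 1 had its summit at 8994492 and the longer peak of replicate 2 at 8994500, a distance of 8 bp in peaks about 10 kb wide or wider. Both summits lay toward the 3′ end, at 80.4% and 77.0% of the peak width.

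A short break divided the 2 wide peaks in both full-length replicates at the same place. It ran from 8984822 to 8984996 (175 bp) in replicate 1 and from 8984766 to 8985034 (269 bp) in replicate 2, and the break of replicate 1 lay wholly inside that of replicate 2. No base of the 175 bp was covered in any of the 4 lists.

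Before the wide stretch, 3 closely spaced narrow peaks appeared in both full-length libraries. The first, from 8977054 to 8977409 in replicate 1, had 6.58-fold and 6.94-fold enrichment in the 2 replicates. The next, from 8977477 to 8977911, had 21.3-fold and 13.1-fold and ranked 101 and 168. The third, from 8978040 to 8978517, had 20.8-fold and 15.6-fold and ranked 126 and 147. These narrow peaks thus stood among the best 1.01% of their lists, apart from the first, which ranked 1160 and 1105. Gaps of 67 and 128 bp parted the 3 in replicate 1 and gaps of 155 and 186 bp in replicate 2, and 551 and 616 bp without a peak followed before the wide stretch.

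At the 5′ end of the locus a peak spanning bases 8966656 to 8967074 in replicate 1 and 8966668 to 8967010 in replicate 2 had 18.8-fold and 11.6-fold enrichment, with ranks 309 and 366. Its start lay 56 and 68 bp inside the locus. A weaker peak followed, which covered 8967767 to 8968372 in replicate 1 and 8967748 to 8968331 in replicate 2 at 4.26-fold and 4.11-fold enrichment. After it the longest uncovered parts of the locus began. In these, each full-length library had 1 weak peak that the other lacked. Replicate 1 had 1 from 8970862 to 8971163 with 2.50-fold enrichment and rank 13214, and replicate 2 had 1 from 8969142 to 8969399 with 2.19-fold enrichment and rank 14690. They were the least enriched Ahnak peaks of their libraries. The widest gaps measured 5890 bp in replicate 1, from 8971164 to 8977053, and 7659 bp in replicate 2, from 8969400 to 8977058.

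**Figure D3:**
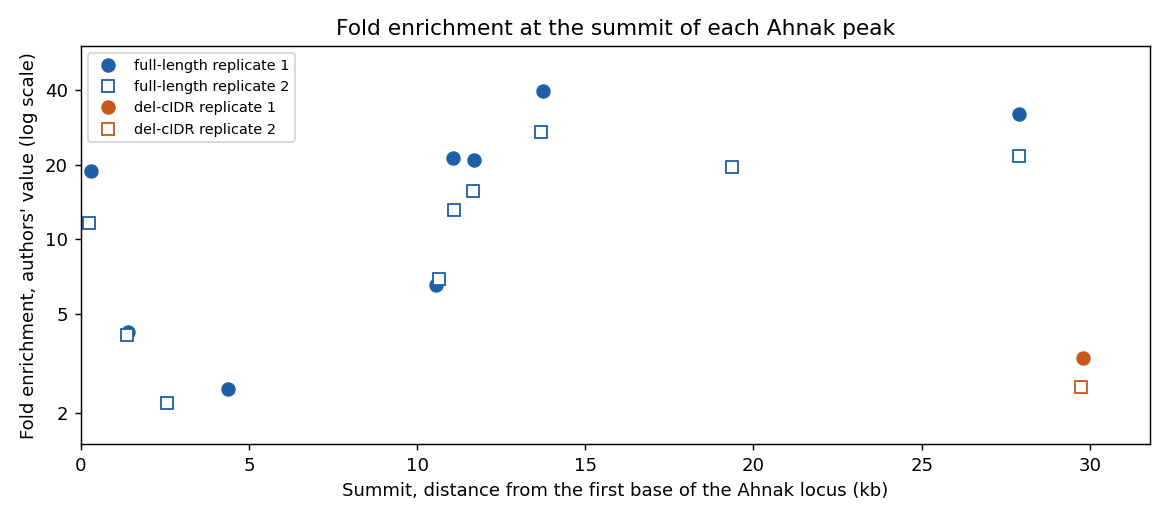
Fold enrichment as deposited (y axis, log scale) of each Ahnak peak against the position of its summit in kb from the first base of the locus, with filled circles for replicate 1 and open squares for replicate 2. The full-length peaks (blue) run from 2.19-fold to 39.5-fold and are highest in the wide stretch, and the del-cIDR peaks (orange) lie at 3.34-fold and 2.54-fold near 30 kb.

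The 2 full-length replicates drew nearly the same outline of Ahnak. They shared 19318 bp, which is 95.9% of the covered bases of replicate 1 and 98.6% of those of replicate 2, and the Jaccard index (shared over combined bases) was 0.946. Of the peaks of replicate 1, 7 of 8 overlapped a peak of replicate 2, and 8 of the 9 peaks of replicate 2 overlapped one of replicate 1. Enrichment was higher in replicate 1 at 6 of the 7 peaks it shared with replicate 2 (the long peak of replicate 2 taken as the partner of its widest), with a median ratio of 1.46 and the 6.58-fold peak as the exception. Over all 8960 peaks of the 2 lists that matched 1 to 1 the median ratio was 1.09, and over the 52 of them that were 5 kb or wider in replicate 1 it was 1.41.

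The ends of the Ahnak peaks differed between the full-length replicates by a steadier amount than their starts. All 7 shared stretches ended further along in replicate 1, by 41 to 64 bp with a median of 56 bp. Their starts differed by only 2 to 38 bp. The smallest peak of the list was 297 bp in replicate 1 and 243 bp in replicate 2, a difference of 54 bp. Over all 8960 matched peaks the ends of replicate 1 lay a median of 52 bp further along and the starts a median of 49 bp further back. Ahnak thus followed the general offset at its ends and showed less than the median offset at its starts.

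The del-cIDR peaks marked a single site, found in both replicates. It ran from 8996190 to 8996646 (457 bp) in replicate 1 and from 8996148 to 8996543 (396 bp) in replicate 2, with 354 bp in common, a Jaccard index of 0.709. The summits were at 8996398 and 8996349, 49 bp apart. Enrichment was 3.34-fold and 2.54-fold, beside a median of 3.17 and 3.16 over all peaks of those lists. The peaks ranked 3630 of 17584 and 8494 of 18841 by −log10 q, which is 20.6% and 45.1% of the way down those lists.

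This site lay wholly within the widest full-length peak of each replicate, close to that peak's 3′ edge. From the del-cIDR summits to the end of the full-length peak the distance was 348 to 451 bp over the 4 pairs of libraries, which is 95.9 to 96.6% of the way along the full-length peak. The del-cIDR summits lay 1849 to 1906 bp beyond the full-length summits. The del-cIDR peak spanned 3.35 to 4.68% of the width of the full-length peak that held it. All bases of the del-cIDR peaks were also full-length bases, and 1.96 to 2.33% of the full-length Ahnak bases were del-cIDR bases. A deposited list gives 1 summit per peak, so the full-length signal at the del-cIDR site is not known from these files.

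**Figure D4:**
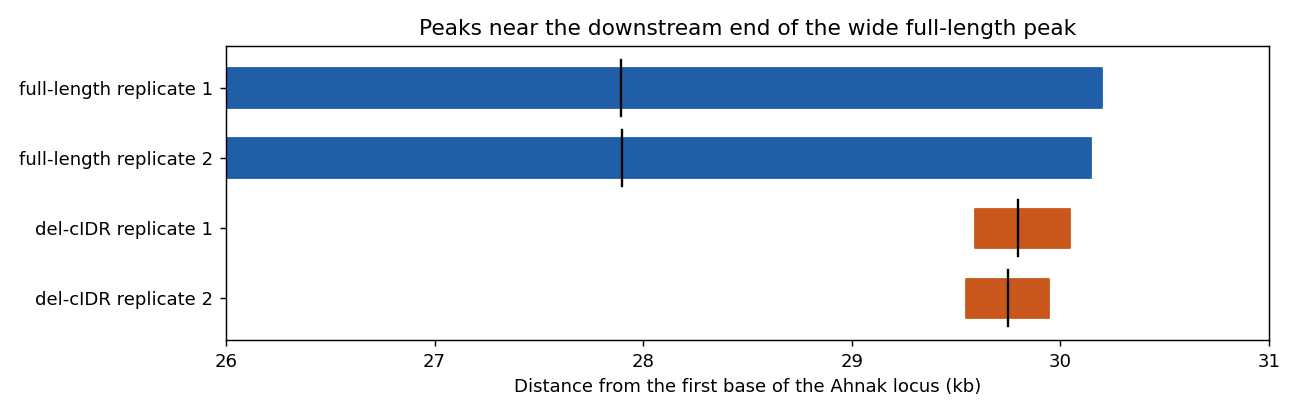
Peaks of the 4 libraries between 26 and 31 kb from the first base of the locus (x axis, kb), with black ticks at summits. The del-cIDR peaks (orange, 457 and 396 bp) end 100 to 257 bp before the full-length peaks (blue), whose summits lie 1849 to 1906 bp upstream of the del-cIDR summits.

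The values of each library show how the peak number and the widest peak split between the genotypes. Peak number averaged 8.5 ± 0.707 in full-length and 1 in both del-cIDR libraries (n = 2 per genotype). The widest Ahnak peak measured 11804 and 9772 bp in full-length libraries, with a mean of 10788 ± 1437 bp, and 457 and 396 bp in del-cIDR libraries, with a mean of 426.5 ± 43.1 bp (SD, n = 2 per genotype). The ratio of these means was 25.3, and no library of one genotype reached the other. The median width of the Ahnak peaks was 456.5 and 416 bp in full-length libraries, against 457 and 396 bp for the del-cIDR peaks, so most full-length sites were about as narrow as the del-cIDR site and the difference in width lay in the 2 or 3 peaks of the wide stretch. Peaks of 2 kb or more made up 87.1% and 78.9% of the covered Ahnak bases in the full-length replicates.

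**Figure D5:**
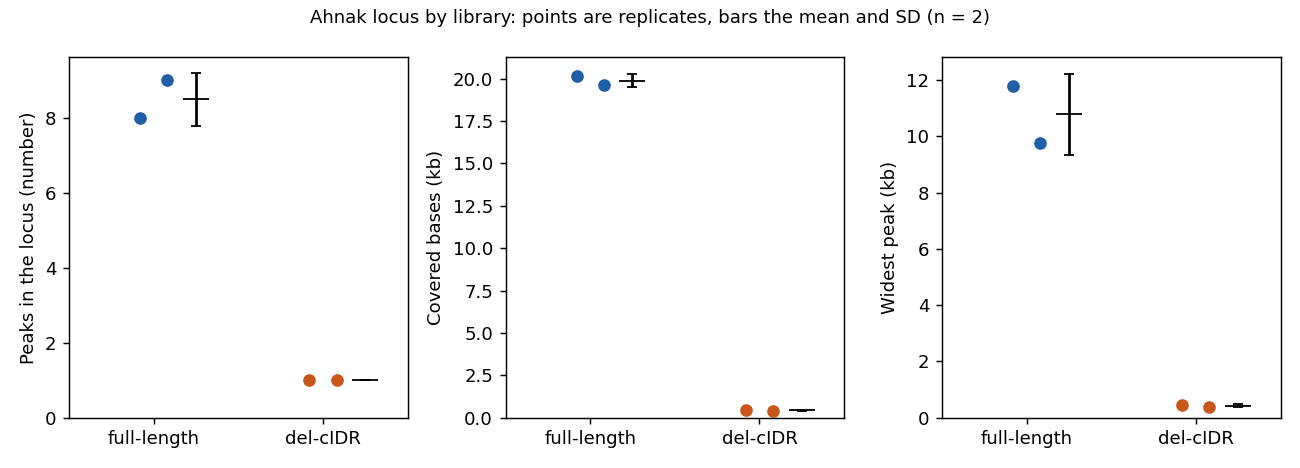
Number of Ahnak peaks, covered bases in kb and widest peak in kb for each library, with replicates as points and the mean and SD (n = 2 per genotype) as black bars. Both full-length points lie above both del-cIDR points in each panel, with covered bases of 20153 and 19595 bp against 457 and 396 bp.

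Among all full-length peaks, the Ahnak peaks of 5 kb or more were some of the widest, for which the locus was chosen. Their enrichment lay above the median of the peaks of 5 kb or more in both lists, which is likewise only a description. The peak from 8984997 was the third widest of 19892 in replicate 1, and its counterpart from 8986975 the fourth widest of 16636 in replicate 2. Of the 101 peaks of 5 kb or more in replicate 1 the first wide Ahnak peak ranked 3 by enrichment and the other ranked 9, with a median of 15.9-fold and a highest value of 52.2-fold in that group. In replicate 2, with 54 such peaks, they ranked 2 and 6, beside a median of 13.0-fold and a highest value of 48.5-fold.

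Among the widest full-length regions, the Ahnak region was the one that also held del-cIDR peaks. When full-length peaks of both replicates were joined where they overlapped, the region at 8984997 to 8996800 in Ahnak was the third in width. Before it came chromosome 2 at 76566146 to 76585288 (19143 bp) and chromosome 14 at 61440189 to 61453163 (12975 bp). After it came chromosome 15 at 76054971 to 76066720 (11750 bp) and chromosome 1 at 63341829 to 63352293 (10465 bp). Of these 5, only the Ahnak region held a peak in either del-cIDR list. Its highest full-length enrichment, 32.0-fold and 21.7-fold, lay near that of the chromosome 2 region (36.4-fold and 22.1-fold) and below that of the chromosome 14 region (52.2-fold and 48.5-fold). The region on chromosome 15 had 10.3-fold and 4.39-fold, and that on chromosome 1 had 20.6-fold and 12-fold.

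Del-cIDR peaks inside such wide sites were not limited to Ahnak. No del-cIDR peak of either list overlapped 78 of the 101 full-length peaks of 5 kb or more in replicate 1 and 39 of the 54 in replicate 2. Peaks in both del-cIDR lists overlapped 10 of the 101 and 6 of the 54, the longer Ahnak peak among them. In the other 9 peaks of replicate 1, del-cIDR peaks spanned 3.65 to 44.2% of the width in del-cIDR replicate 1 (median 11.8%) and 3.68 to 48.5% in replicate 2 (median 10.9%), against 3.87% and 3.35% at Ahnak. One of these 9 had a smaller share than Ahnak in del-cIDR replicate 1 and none had in replicate 2. Of the other 5 peaks of full-length replicate 2, 1 had a smaller share than Ahnak in each del-cIDR list. Exactly 1 peak of each del-cIDR list lay in 3 of the 10 wide peaks of replicate 1 and in 3 of the 6 of replicate 2, Ahnak included in both.

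The flanks of Ahnak showed the opposite order of the genotypes on one side and no peak on the other. In the 31801 bp upstream of the locus the full-length lists held no peak and the del-cIDR lists held 4 and 5, covering 1887 and 2212 bp. Windows of this length in which both del-cIDR lists had more peaks than both full-length lists made up 26.2% of all windows, so this order was common too. The upstream del-cIDR peaks lay between 8944643 and 8950844, and the nearest ended 15756 and 15767 bp before the locus. Their enrichment was 1.71-fold to 2.49-fold in replicate 1 and no more than 3.48-fold in replicate 2, and by −log10 q the best of them ranked 3049 and 2199 in those lists, ahead of the del-cIDR site inside Ahnak. The 4 sites of replicate 1 recurred in replicate 2, and the other peak, from 8944643 to 8945081 with 3.48-fold enrichment, was listed in replicate 2 alone. Downstream, no list held a peak in the next 31801 bp. RefSeq's model of Ahnak in GRCm38.p6 spans 87652 bp and so is longer than the locus, and no list held a peak between the end of the locus and the point that lies this length from its start. In the order of protein-coding genes of that annotation, Eef1g (a subunit of translation elongation factor 1) and Tut1 (a terminal uridylyltransferase) precede Ahnak and Scgb1a1 (a secretoglobin) follows it, but the flanking peaks were not assigned to genes here.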

How the data were processed

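Members of the locus and the comparisons were chosen with earlier results of these data known. The submitters' processing notes name the build GRCm39 and the tools MACS2, UMI-tools, STAR and cutadapt. Their versions, settings and roles, and whether inputs served as control, are not given in the sources read. The authors deposited 1 peak list per immunoprecipitate, with a fold enrichment (a ratio over the peak caller's background), a −log10 p, a −log10 q and a score for each peak, and a summit offset from the peak start. Lists named wt were taken as full-length and those named KI as del-cIDR, the only other genotype.

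All deposited peaks were used. Covered bases, gaps, summits and ranks (by −log10 q within a list) were computed with Python 3.11.15 and pandas 2.3.3, and the interval counting was tested on simulated data. Background windows of 31801 bp were laid end to end from the start of the numbered, X and Y chromosomes. They entered with a peak in at least 1 list. Their edges were not set to those of the locus, but Ahnak was not left out, and 1 window took in most of it. Wide peaks were set at 2 and 5 kb. Peaks printed in full are the widest and best ranked of each list and every del-cIDR peak. The rest of the 19 are given too. For the closely spaced narrow peaks before the wide stretch, only the positions of full-length replicate 1 are printed. The 5 widest full-length regions served as comparison. Sequence at the peaks, transcript features and the planned lists of partner and large-exon genes need a GRCm39 genome or annotation and were not analysed here. Alternatives are given at the end.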

Additional observations from a re-analysis of the deposited data

How the results depend on the processing

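Of 56 alternative values, 6 moved by more than the replicate spread (for counts, by more than 1.5 times) and none changed direction. Some of the others could not move: with 2 replicates, leaving out 1 shifts a mean by no more than that spread, and a window with both full-length lists above both del-cIDR lists always has peaks in at least 2 lists. Among windows with peaks in at least 2 lists the share in that order was 29.7%, against 20.4% of all windows. Joining peaks within 1 kb moved 4 of the 6. The difference in peak number (full-length minus del-cIDR) went from 7.5 to 1.5, and that in covered bases from 19447.5 to 21666.5 bp. That in the widest peak went from 10361.5 to 19291 bp. The total gap length per full-length list, averaged over the 2 lists, went from 10238 to 8019 bp. A fold enrichment of at least 4 removed both del-cIDR peaks, so the mean Jaccard index across genotypes went from 0.0215 to 0, and the distance between summits had no value. The last concerned full-length peaks of 2 kb or more that held a peak of both del-cIDR lists. Requiring the del-cIDR peak to lie wholly inside took their mean share from 10.1 to 7.69%. For peaks of 5 kb or more the count went from 10 to 9 of 101 in full-length replicate 1 and stayed at 6 of 54 in replicate 2. Immunoprecipitates were not paired with their inputs, which have no peak list here. None of the results comes from a test: the locus was chosen by its peaks, and 2 libraries against 2 could not give an exact permutation p under 0.333. Read depth is unknown, so an uncovered base means that no peak was listed there.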
